A study of Mus musculus with 10 samples.

Results

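The comparison described here is between a pair of mouse 8-cell embryo groups, CdxE2_KO and Arpc1bE_CdxE1_KO, which both carry a knockout of Tfap2c motifs in the genome. The members are 4 of the 10 RNA libraries of the series, 2 of CdxE2_KO and 2 of Arpc1bE_CdxE1_KO, and the genes tested are the 10777 of 24421 listed genes with at least 1 linear abundance unit in at least 2 of these 4 libraries. All values are from 1 deposited table, which also holds 2 control libraries. These give a level for orientation and do not enter the main fit, only an alternative fit in which they add to the estimate of spread. The study measured total RNA of 8-cell embryos with and without interference with Tfap2c or Klf5, the latter by knockdown in libraries not used here.

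The embryos of all 3 groups are of BDF1 genotype, at the 8-cell stage, with zona pellucida and polar bodies taken off before RNA extraction. The treatment of both knockout groups is given as a Tfap2c motif knockout, and that of the third group as control. The name CdxE2_KO holds CdxE2 alone and the name Arpc1bE_CdxE1_KO holds Arpc1bE together with CdxE1; the labels do not spell these out, and they are read here as referring to Cdx2 and Arpc1b. The labels give neither the positions of the motifs nor the share of edited cells, and they do not say whether the 2 libraries of a group come from separate pools of embryos. The p-values therefore measure only the spread between these libraries, which may be technical.

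Tfap2c is an AP-2 transcription factor of the early embryo and the trophoblast, and AP-2 proteins bind a palindromic GC-rich motif as dimers. Cdx2 encodes a homeodomain transcription factor of the trophectoderm, the outer layer of the blastocyst that gives rise to the placenta. Arpc1b encodes a subunit of Arp2/3, the nucleator of branched actin networks, and cortical actin takes part in the polarisation of 8-cell blastomeres.

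The upstream sequences of the genes in the knockouts' names are shown because both groups are defined by AP-2-type motifs. Each run is the 250 bases before the gene's start in RefSeq on GRCm38.p6, 5′ to 3′ on the gene's own strand, and capitals mark a match to GCCNNNGGC, the AP-2 core, which reads the same on both strands. The Cdx2 run is chr5:147307250-147307499 on the minus strand, and the Arpc1b run is chr5:145114006-145114255 on the plus strand.
Cdx2: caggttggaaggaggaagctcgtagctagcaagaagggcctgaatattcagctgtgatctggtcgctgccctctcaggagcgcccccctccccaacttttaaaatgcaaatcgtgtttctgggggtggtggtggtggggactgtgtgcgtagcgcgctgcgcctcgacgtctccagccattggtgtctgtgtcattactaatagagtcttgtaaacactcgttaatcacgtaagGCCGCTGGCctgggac
Arpc1b: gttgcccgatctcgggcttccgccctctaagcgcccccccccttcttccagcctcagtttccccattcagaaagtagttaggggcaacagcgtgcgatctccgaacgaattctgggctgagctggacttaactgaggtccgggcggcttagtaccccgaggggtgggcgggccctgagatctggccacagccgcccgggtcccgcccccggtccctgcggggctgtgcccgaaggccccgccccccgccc
The Cdx2 run held 1 match, GCCGCTGGC, from 16 to 8 bases before the start, and 55.2% of its bases were G or C. The Arpc1b run held 0 matches to GCCNNNGGC, and 68.4% of its bases were G or C. Patterns with another number of bases between GCC and GGC were not searched for. The GENCODE M21 models place the gene starts inside these runs, at 147307270 for Cdx2 and 145114215 for Arpc1b. Over windows from 250 bases before to 50 bases after the start, the motif stood in 16.6% of 32851 RefSeq promoters. Of the 7985 tested genes with a listed promoter, 2325 (29.1%) had it in at least 1 of their promoters. The first share counts promoters and the second counts genes, so they are not on the same scale. A match is a description of these letters, and the files do not say whether the deleted motifs lie in these windows.

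The values are log2(abundance + 1), called log2 units below, and the kind of abundance and the depth are not given. The abundances of a library summed to 478651 and 481129 linear units in CdxE2_KO, 498621 and 483600 in Arpc1bE_CdxE1_KO, and 389715 and 390386 in the control. In all 4 knockout libraries the median tested gene stood above the control mean, by 0.26 to 0.30 log2 units, whereas the median difference between the knockout groups was 0.02. Levels set beside the control below are as deposited and are not corrected for this shift. The 7 markers of the 8-cell embryo stood at 4.68 to 9.32 log2 units in the 4 knockout libraries, and their summed level was 894 to 950 linear units in CdxE2_KO and 946 to 1096 in Arpc1bE_CdxE1_KO. Of 12 markers of cumulus and granulosa cells, which surround the egg, 11 stayed below 1 linear unit in all 4 libraries and 6 were listed at 0; their summed level was 1.31 to 2.22 linear units in CdxE2_KO and 1.48 to 1.53 in Arpc1bE_CdxE1_KO. All 6 spermatid markers stayed below 1 linear unit. In whole embryos, fewer cells of a type and less RNA per cell cannot be told apart.

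Cdx2 was low in both knockouts and did not separate them. It lies on chromosome 5 from 147300805 to 147307270, on the minus strand (GENCODE M21, mm10). Its level was 0.82 and 0.93 log2 units in the CdxE2_KO libraries, 0.77 and 1.53 in the Arpc1bE_CdxE1_KO libraries, and 2.35 and 2.48 in the control libraries. The knockout groups overlapped, and all 4 of their libraries lay below both control libraries. The means were 0.87 ± 0.08 in CdxE2_KO, 1.15 ± 0.53 in Arpc1bE_CdxE1_KO and 2.41 ± 0.09 in the control (SD, n = 2 each). Cdx2 did not pass the filter on low values, so its difference of -0.28 log2 units is a difference of means. In the limma fit without that filter its adjusted p was 0.80. Without Arpc1bE_CdxE1_KO replicate 2, the highest of the 4 libraries, the difference was 0.10, and without replicate 1 of that group it was -0.66.

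Arpc1b stood at nearly the control level in CdxE2_KO and well below it in Arpc1bE_CdxE1_KO. The gene lies on chromosome 5 from 145114215 to 145130705, on the plus strand. Its level was 4.84 and 4.66 log2 units in CdxE2_KO, 3.27 and 3.30 in Arpc1bE_CdxE1_KO, and 4.71 and 4.48 in the control. The CdxE2_KO libraries lay above both Arpc1bE_CdxE1_KO libraries, and overlapped with those of the control. The means were 4.75 ± 0.13 in CdxE2_KO, 3.29 ± 0.02 in Arpc1bE_CdxE1_KO and 4.59 ± 0.16 in the control (SD, n = 2 each). The log2 fold change of CdxE2_KO over Arpc1bE_CdxE1_KO was 1.46 (SE 0.12), a 2.76-fold difference on the scale of abundance + 1. Its unadjusted p was 1.8e-05, and its limma p adjusted over 10777 genes was 0.065, so it missed the threshold of 0.05. It passed with the 2 control libraries added to the estimate of spread (adjusted p = 0.018), with a filter at 5 linear units (0.028) and without Arpc1bE_CdxE1_KO replicate 2 (0.022). The last 1937 bases of Arpc1b overlap Pdap1 on the opposite strand. The libraries were made with a stranded kit, but whether strand was used in counting is not given in the sources used here.

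Tfap2c and Klf5, a Krüppel-like factor of the early embryo, differed between the knockouts by less than the spread between replicates. Tfap2c stood at 6.61 and 6.48 log2 units in CdxE2_KO, 6.50 and 6.66 in Arpc1bE_CdxE1_KO, and 6.61 in each control library. Its log2 fold change was -0.03 (SE 0.11, limma adjusted p = 0.93). Klf5 stood at 7.12 and 6.95 log2 units in CdxE2_KO, 6.98 and 7.13 in Arpc1bE_CdxE1_KO, and 7.20 and 7.13 in the control. Its log2 fold change was -0.02 (SE 0.11, limma adjusted p = 0.96). In both genes the knockout libraries interleaved.

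**Figure D1:**
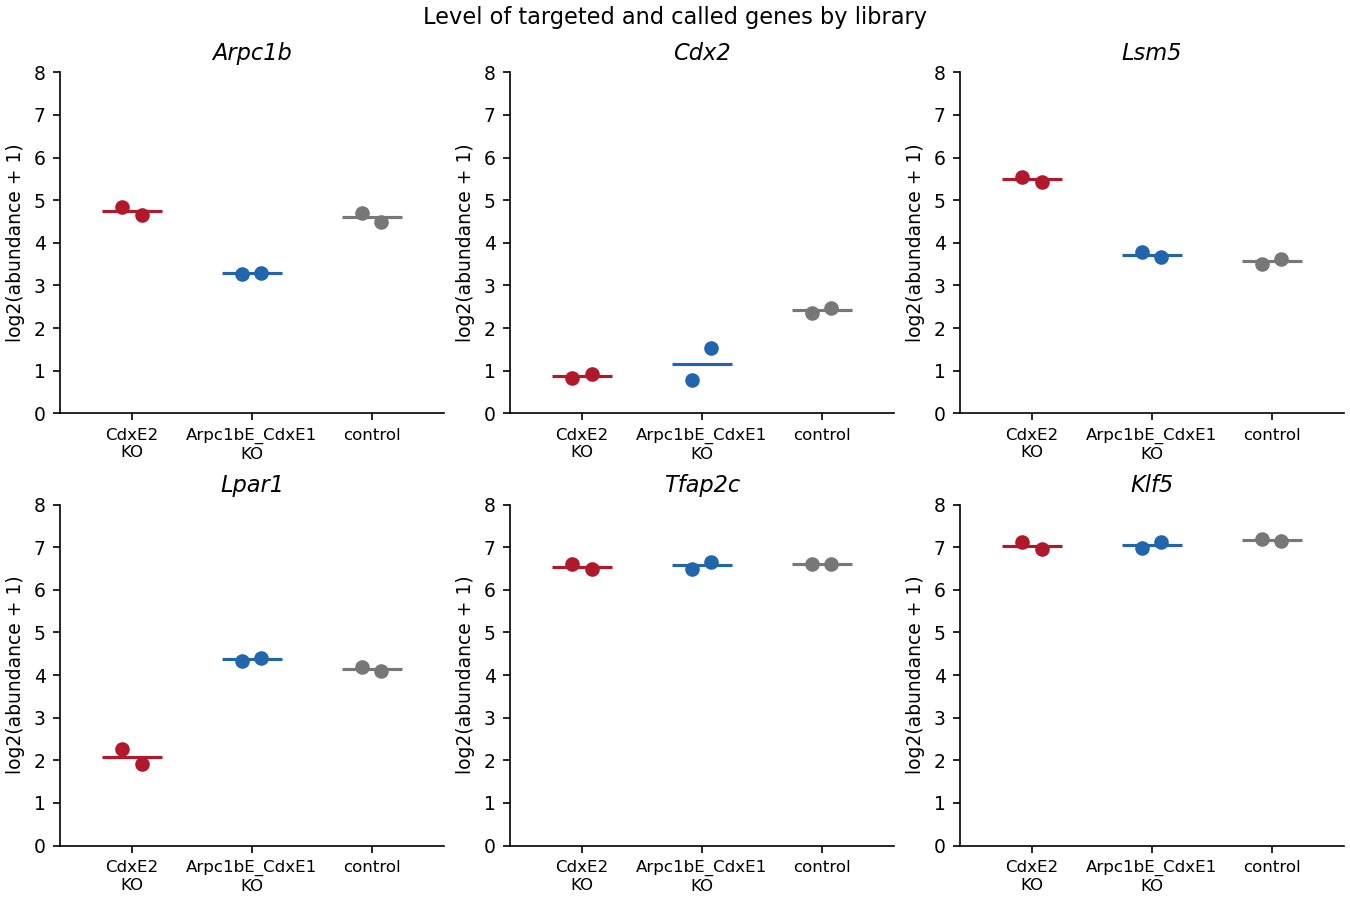
Level of Arpc1b, Cdx2, Lsm5, Lpar1, Tfap2c and Klf5 in log2(abundance + 1) in CdxE2_KO, Arpc1bE_CdxE1_KO and control embryos; points are libraries (2 a group) and bars the group means. Arpc1b is at 3.27 and 3.30 in Arpc1bE_CdxE1_KO and at 4.48 or more in the other libraries, Cdx2 is between 0.77 and 1.53 in the 4 knockout libraries, and Lsm5 and Lpar1 stand apart in CdxE2_KO.

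Few genes separated the knockouts: 2 of 10777 genes (0.0186%) passed at a limma adjusted p under 0.05. Lsm5 rose and Lpar1 fell in CdxE2_KO relative to Arpc1bE_CdxE1_KO, 1 gene in each direction (0.00928% each). At an unadjusted p under 0.05 there were 521 genes higher in CdxE2_KO (4.83%) and 428 lower (3.97%). From the 5th to the 95th percentile of genes, log2 fold changes ran from -0.40 to 0.41, with a median SE of 0.16. A log2 fold change of at least 1 in size was seen in 42 genes with higher values in CdxE2_KO and 37 with lower ones. The libraries of the groups did not overlap in 43.4% of genes, 24.8% with higher values in CdxE2_KO and 18.6% with lower ones. The replicates of CdxE2_KO differed by a log2 value of at least 1 in 159 genes and those of Arpc1bE_CdxE1_KO in 206. These are differences of single libraries, while the fold changes are differences of means of 2, so the counts are not on the same scale. The number of genes passing rested on single libraries. It was 13 without CdxE2_KO replicate 1, 4 without CdxE2_KO replicate 2, 8 without Arpc1bE_CdxE1_KO replicate 1 and 171 without Arpc1bE_CdxE1_KO replicate 2.

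Lsm5, a subunit of the Lsm ring that binds U6 small nuclear RNA and takes part in mRNA decay, was higher in CdxE2_KO than in Arpc1bE_CdxE1_KO and stood above the control there. It lies on chromosome 6 from 56701063 to 56704710, on the minus strand. Its level was 5.55 and 5.43 log2 units in CdxE2_KO, 3.79 and 3.66 in Arpc1bE_CdxE1_KO, and 3.50 and 3.63 in the control. Both CdxE2_KO libraries lay above the other 4, which kept within 3.50 to 3.79. In linear units the means were 43.9 in CdxE2_KO, 12.2 in Arpc1bE_CdxE1_KO and 10.9 in the control. The log2 fold change was 1.76 (SE 0.12, limma adjusted p = 0.039). The other tested members of the family, looked at after Lsm5 had been seen, were Lsm1, Lsm2, Lsm3, Lsm4, Lsm6, Lsm7 and Lsm8, with log2 fold changes between -0.22 for Lsm4 and 0.01 for Lsm1. Avl9, a neighbour of Lsm5 on chromosome 6, had 6.30 and 6.24 log2 units in CdxE2_KO and 6.01 and 6.16 in Arpc1bE_CdxE1_KO, a log2 fold change of 0.19 (limma adjusted p = 0.59).

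Lpar1, a G protein-coupled receptor for lysophosphatidic acid, was lower in CdxE2_KO than in Arpc1bE_CdxE1_KO and stood below the control there. It lies on chromosome 4 from 58435255 to 58553898, on the minus strand. Its level was 2.27 and 1.91 log2 units in CdxE2_KO, 4.32 and 4.41 in Arpc1bE_CdxE1_KO, and 4.19 and 4.09 in the control. Both CdxE2_KO libraries lay below the other 4. The mean was 3.28 linear units in CdxE2_KO, 19.6 in Arpc1bE_CdxE1_KO and 16.7 in the control. The log2 fold change was -2.28 (SE 0.16, limma adjusted p = 0.039). Of the other lysophosphatidic acid receptors, Lpar5 was the only one tested, at 0.15 (adjusted p = 0.80). Lpar2, Lpar3, Lpar4 and Lpar6 were too low to test. Both calls were lost without the filter on low values, with an added constant of 0.1 and without the intensity trend in the variance, and Lpar1 also missed the threshold without Arpc1bE_CdxE1_KO replicate 1 (adjusted p = 0.058).

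**Figure D2:**
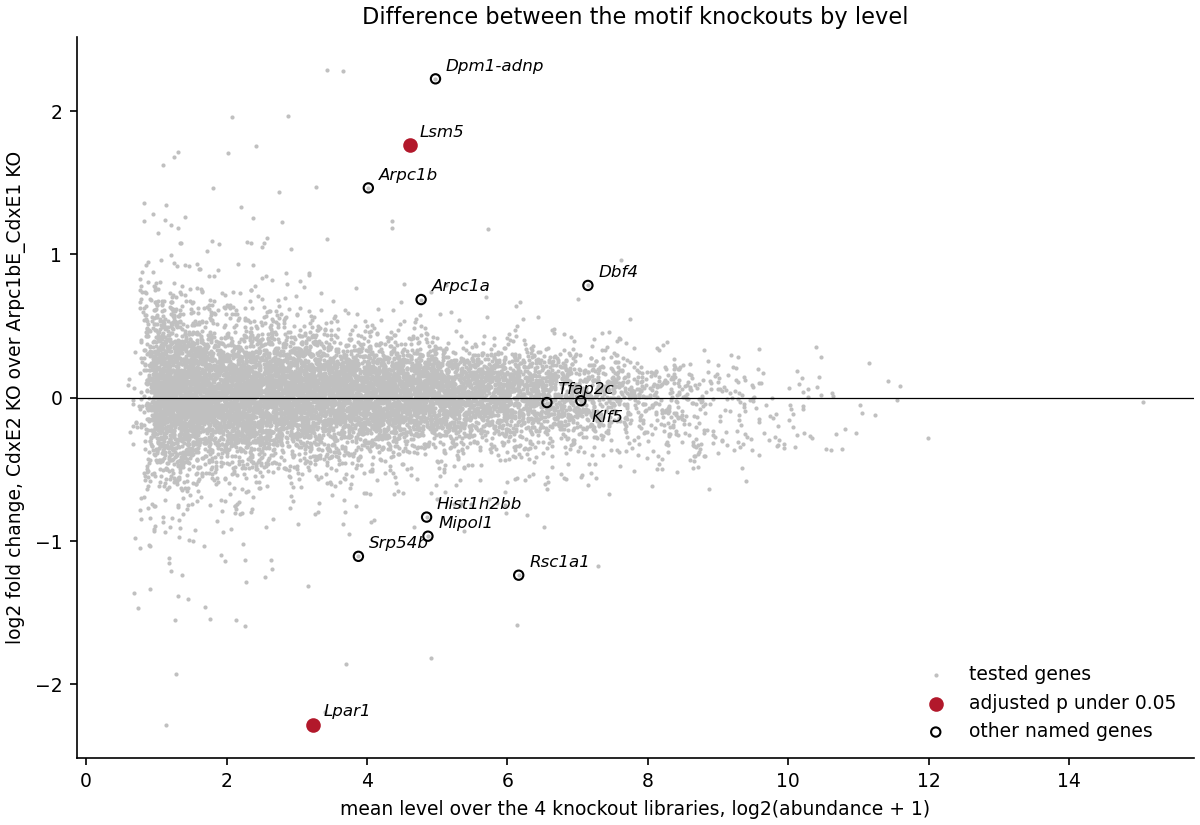
Log2 fold change of CdxE2_KO over Arpc1bE_CdxE1_KO against the mean level of the 4 knockout libraries for the 10777 tested genes; filled points passed at an adjusted p under 0.05, open circles are other genes named in the text. Lsm5 (1.76) and Lpar1 (-2.28) are the 2 filled points, and Arpc1b (1.46) lies beside them without passing.

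The genes next in line by p value did not pass. On the higher side these were, after Lsm5 and Arpc1b, Dpm1-adnp, Dbf4, Snord58b, Has3, Ppp1r13b and Arpc1a. Dpm1-adnp is a readthrough entry over Dpm1 and Adnp, and it stood at 6.40 and 5.77 log2 units in CdxE2_KO, 4.09 and 3.63 in Arpc1bE_CdxE1_KO, and 5.94 and 5.98 in the control. Its log2 fold change was 2.23 (SE 0.24, limma adjusted p = 0.19), while Dpm1, an enzyme subunit of dolichol phosphate mannose synthesis, was at -0.66 and Adnp, a homeobox protein, at 0.73. These 3 entries can share reads, so how the signal was divided between them is uncertain. Dbf4, the activating subunit of the Cdc7 kinase at replication origins, had 7.50 and 7.58 log2 units in CdxE2_KO, 6.76 and 6.75 in Arpc1bE_CdxE1_KO, and a mean of 6.98 ± 0.03 in the control (SD, n = 2). The knockout groups did not overlap, as the rule for naming Dbf4 required, and its log2 fold change was 0.78 (SE 0.09, limma adjusted p = 0.21).

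Has3, a hyaluronan synthase, had a log2 fold change of 0.76 and Ppp1r13b, a p53-binding protein, one of 0.70 (limma adjusted p = 0.36 each). Snord58b, a small nucleolar RNA inside the Rpl17 gene on the same strand, was at 0.74 (limma adjusted p = 0.32), and its host Rpl17 was at -0.90 with overlapping libraries. Reads of a small nucleolar RNA and of its host cannot be told apart with certainty in a gene table. Has3, Ppp1r13b and Snord58b each had both CdxE2_KO libraries above both Arpc1bE_CdxE1_KO libraries, as the rule for naming them required.

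On the lower side, after Lpar1, these were Rsc1a1, Srp54b, Hist1h4f, Hist1h2bb, Ccdc43, Hist1h2ao and Mipol1. Rsc1a1, known as a regulator of sugar transporters, stood at 5.60 and 5.48 log2 units in CdxE2_KO, 6.89 and 6.66 in Arpc1bE_CdxE1_KO, and 3.57 and 4.26 in the control. Both knockouts lay above the control, and CdxE2_KO lay between the other groups, with a log2 fold change of -1.24 (SE 0.12, limma adjusted p = 0.10). The gene lies wholly within Ddi2 on the same strand, and Ddi2 had a log2 fold change of 0.24, so the split of reads between them is uncertain. Srp54b, a copy of the signal recognition particle subunit gene, was at -1.11 (limma adjusted p = 0.31). Its near copies were Srp54a, at -0.19, and Srp54c, which was listed at 0 in 1 Arpc1bE_CdxE1_KO library and at 4.07 log2 units in the other, so reads may have been shared among the copies. Ccdc43 was at -0.61 and Mipol1 at -0.97 (limma adjusted p = 0.37 each).

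Along chromosome 5, the genes between Arpc1b and Cdx2 leaned towards higher values in CdxE2_KO. The span of 2170.1 kb holds 39 listed genes, of which 17 were tested. Of these 17, 13 had both CdxE2_KO libraries above both Arpc1bE_CdxE1_KO libraries and 0 the reverse, where 24.8% and 18.6% of all tested genes did. Their median log2 fold change was 0.36, against 0.02 for all genes tested, 16 of the 17 lay above 0, against 53.4% of all genes, and 8 had an unadjusted p under 0.05, all with higher values in CdxE2_KO. None passed in the limma fit at an adjusted p under 0.05. The span was looked at because it is bounded by both targets, and its genes other than the nearest neighbours of each are named after their values were seen.

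Near Arpc1b the values were largest. Pdap1, the neighbour that overlaps Arpc1b, had 7.40 and 7.29 log2 units in CdxE2_KO, 6.53 and 6.78 in Arpc1bE_CdxE1_KO, and 6.84 and 6.89 in the control, a log2 fold change of 0.69 (SE 0.12, limma adjusted p = 0.37). On the other side of Arpc1b lies Arpc1a, its paralog in the Arp2/3 complex, with 5.19 and 5.04 log2 units in CdxE2_KO, 4.42 and 4.43 in Arpc1bE_CdxE1_KO, and 4.77 and 4.67 in the control. The control lay between the knockouts in both genes, and the log2 fold change of Arpc1a was 0.69 (SE 0.11, limma adjusted p = 0.37). Ptcd1, a mitochondrial RNA-binding protein, was at 0.69, Cpsf4, a subunit of the polyadenylation machinery, at 0.43, Bud31, a splicing factor, at 0.26 and Atp5j2, an ATP synthase subunit, at 0.16. The remaining neighbours on the far side, Kpna7 among them, were not tested.

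Further along, the zinc finger genes Zkscan5 and Zfp655 were at 0.59 and 0.56. Rnf6, a ubiquitin ligase, had 6.41 and 6.59 log2 units in CdxE2_KO, 5.96 and 5.94 in Arpc1bE_CdxE1_KO, and 5.82 and 5.92 in the control. Cdk8, the kinase of the Mediator complex, had 6.41 and 6.37 log2 units in CdxE2_KO, 5.91 and 5.87 in Arpc1bE_CdxE1_KO, and 6.02 and 6.05 in the control. In these genes both CdxE2_KO libraries stood above all 4 others, without allowance for the lower median of the control libraries. The log2 fold changes were 0.55 for Rnf6 and 0.50 for Cdk8 (SE 0.11 and 0.09). Next to Cdx2, Lnx2, a ubiquitin ligase, was at 0.35 and Polr1d, a subunit shared by RNA polymerases I and III, at 0.26. Rpl21, a ribosomal protein gene, was the only tested gene of the span below 0, at -0.27, with overlapping libraries.

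From Baiap2l1 to Usp12, 18 tested genes in a row, Arpc1b included, had a log2 fold change above 0, with a median of 0.42. The run was drawn after the values were seen, outward from Arpc1b up to the first gene below 0 on each side. That all its values lie above 0, the lowest at 0.11, follows from this rule. In the span of the same length before Arpc1b, 15 of 22 tested genes had higher values in both CdxE2_KO libraries and 0 lower, with a median of 0.13. In the span of the same length after Cdx2 the count was 3 of 8 with a median of -0.03, and on the rest of chromosome 5 it was 169 of 617 with a median of 0.03. Of the nearest neighbours of Cdx2, Gsx1 and Pdx1 inside the span and Urad, Flt3 and Flt1 beyond Cdx2 were not tested, and Pan3, a subunit of a deadenylase beyond Cdx2, was at 0.14. The median of the 17 genes between Arpc1b and Cdx2 was 0.52 without Arpc1bE_CdxE1_KO replicate 1 and 0.26 without replicate 2. The AP-2 core stood in the promoters of 3 of the 13 genes of the span that have one in the table (23.1%) and in neither of those of Lsm5 and Lpar1.

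**Figure D3:**
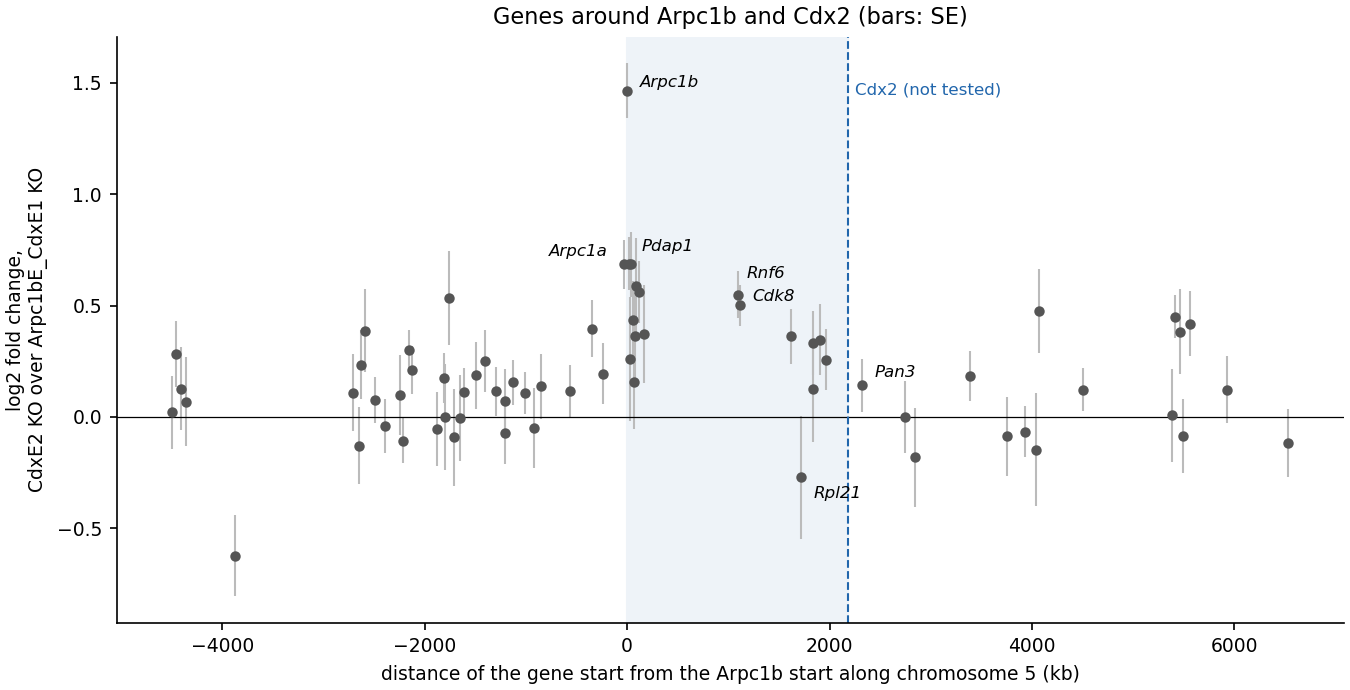
Log2 fold change of CdxE2_KO over Arpc1bE_CdxE1_KO for the tested genes around Arpc1b and Cdx2, by distance of the gene start from that of Arpc1b in kb; bars are SE, and the shaded span runs from Arpc1b to Cdx2. Inside the span 16 of 17 genes lie above 0, with Pdap1 at 0.69 and Rpl21 at -0.27.

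The other subunits of the Arp2/3 complex did not share the direction of Arpc1b and Arpc1a. Arpc2 was at -0.05, Arpc3 at -0.11, Arpc4 at -0.18, Arpc5 and Arpc5l at -0.17 each, Actr3 at -0.004 and Actr2, the Arp2 subunit, at -0.31. Actr2 had 5.46 and 5.37 log2 units in CdxE2_KO, 5.73 and 5.71 in Arpc1bE_CdxE1_KO, and 5.28 and 5.27 in the control, with an unadjusted p of 0.020 and a limma adjusted p of 0.53. In the list of 28 tested genes of the Arp2/3 complex and actin regulation, 5 had higher values in both CdxE2_KO libraries and 8 lower ones. Among all tested genes 24.8% and 18.6% did. The median log2 fold change of the list was -0.05.

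Of 34 gene lists, those of lineage, polarity and the Hippo pathway each had members in both directions, and 0 of their members passed at a limma adjusted p under 0.05. Log2 fold changes lay below 0 in 12 of 19 trophectoderm, 13 of 24 pluripotency and 6 of 8 primitive endoderm genes. They lay below 0 in 12 of 26 polarity and 11 of 24 Hippo genes. Across all lists 0 of 1494 tested members passed, against 2 of 10777 genes (0.0186%), and 210 members (14.1%) had an unadjusted p under 0.05, against 8.81% of all genes. Of these members 70 had higher values in CdxE2_KO and 140 lower, against 521 and 428 of all genes. The counts of members higher or lower in both CdxE2_KO libraries below stand beside 24.8% and 18.6% of all tested genes. In each list below, the examples were chosen after their values were seen. They are not always the members with the lowest p, and some members with a lower p are not named. In the trophectoderm list, 4 of 19 tested members had higher values in both CdxE2_KO libraries and 7 lower ones, 3 and 3 had an unadjusted p under 0.05, and the median was -0.19. Hand1, a basic helix-loop-helix factor of trophoblast giant cells, had 7.69 and 7.42 log2 units in CdxE2_KO, 7.19 and 7.26 in Arpc1bE_CdxE1_KO, and 6.73 and 6.70 in the control, a log2 fold change of 0.33 (limma adjusted p = 0.56). Lrp2, the endocytic receptor megalin, had 1.76 and 2.20 log2 units in CdxE2_KO, 2.68 and 2.82 in Arpc1bE_CdxE1_KO, and 2.71 and 2.73 in the control, a log2 fold change of -0.77 (limma adjusted p = 0.49). Hand1 was above the control in both knockouts, while Lrp2 was below it in CdxE2_KO. Besides Hand1 and Lrp2, Slc2a3 at 0.43, Plac1 at 0.66, Krt18 at -0.43 and Fgfr2 at -0.30 had an unadjusted limma p under 0.05. Gata3, a trophectoderm factor, at -0.40, the keratin gene Krt8 at -0.45 and Tead4, the partner of Yap1, at -0.17 did not. Gata2, Elf5, Krt7, Krt19, Ets2 and Wnt7b were, with Cdx2, the members too low to test.

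In the pluripotency and inner cell mass list, 2 of 24 tested members had higher values in both CdxE2_KO libraries and 8 lower ones, with a median of -0.01. Tfcp2l1, a factor of the naive pluripotent state, had 3.02 and 2.78 log2 units in CdxE2_KO, 3.67 and 3.73 in Arpc1bE_CdxE1_KO, and 4.21 and 3.82 in the control, a log2 fold change of -0.80 (limma adjusted p = 0.37). Pou5f1, the factor Oct4, had 6.27 and 6.12 log2 units in CdxE2_KO, 6.53 and 6.49 in Arpc1bE_CdxE1_KO, and 6.48 and 6.50 in the control, a log2 fold change of -0.32 (limma adjusted p = 0.53). In both genes the CdxE2_KO libraries were the lowest of the 6. Klf17 was at 0.30, Zfp42 at -0.36 and Nanog at -0.19. The polarity and junction list had 8 of 26 tested members with higher values in both CdxE2_KO libraries and 4 lower (median 0.03), with Pard6b, a subunit of the apical Par complex, at -0.48 and the ezrin family genes Rdx and Ezr at 0.30 and 0.32. The Hippo list had 5 of 24 higher and 4 lower (median 0.04), and its targets Ctgf and Cyr61 were at 0.52 and 0.24. The 8 primitive endoderm genes had a median of -0.06.

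**Figure D4:**
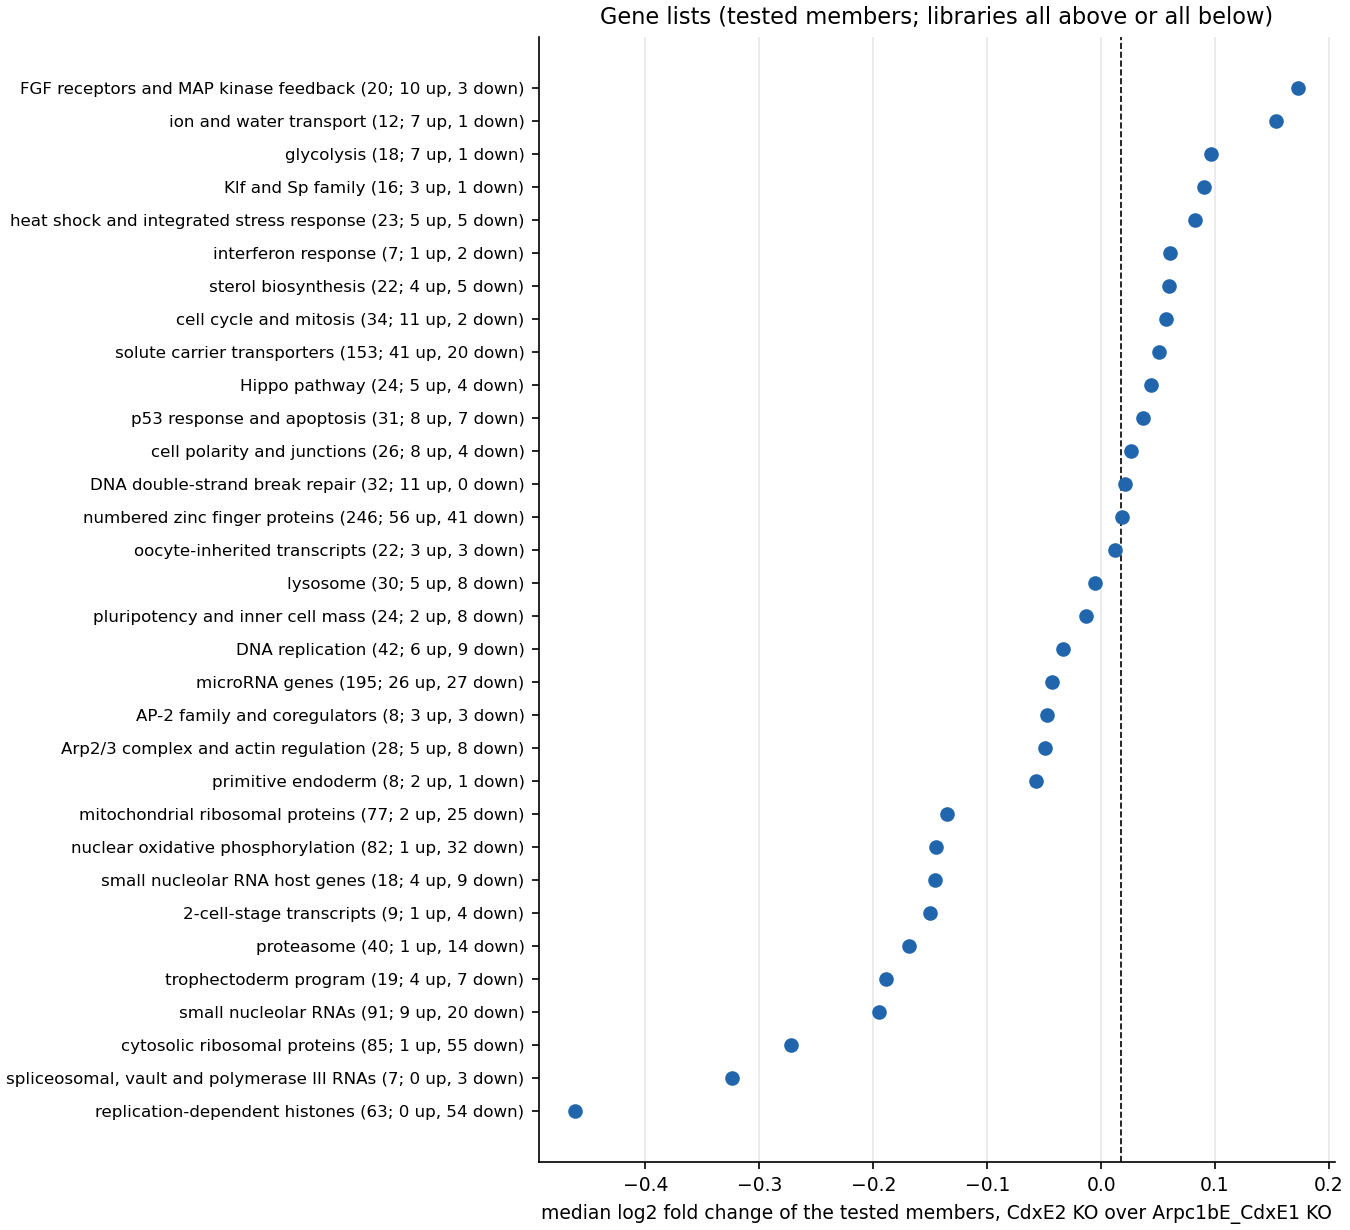
Median log2 fold change of CdxE2_KO over Arpc1bE_CdxE1_KO in each gene list with at least 5 tested members; labels give the tested members and how many had both CdxE2_KO libraries above (up) or below (down) both Arpc1bE_CdxE1_KO libraries, and the dashed line is the median of all genes tested (0.02). Replication-dependent histones lie lowest, at -0.46.

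Replication-dependent histone genes, which are transcribed in S phase into short mRNAs without a poly(A) tail, leaned together to lower values in CdxE2_KO. Of 63 tested members, 62 had a log2 fold change below 0, 54 had both CdxE2_KO libraries below both Arpc1bE_CdxE1_KO libraries, and 39 had an unadjusted p under 0.05, where 18.6% and 3.97% of all tested genes did. None passed at a limma adjusted p under 0.05. The median log2 fold change was -0.46, and by family it was -0.47 for H1, -0.48 for H2A, -0.47 for H2B, -0.48 for H3 and -0.39 for H4. The median level of the list was 5.94 and 5.76 log2 units in CdxE2_KO, 6.66 and 6.16 in Arpc1bE_CdxE1_KO, and 6.07 and 6.0 in the control. It was highest in Arpc1bE_CdxE1_KO replicate 1, and both CdxE2_KO libraries lay below both control libraries. Single members placed differently against the control. Hist1h4f had 5.70 and 5.57 log2 units in CdxE2_KO, 6.26 and 6.33 in Arpc1bE_CdxE1_KO, and 5.24 and 5.30 in the control. Its log2 fold change was -0.66 (SE 0.10, limma adjusted p = 0.36). Hist1h2bb was at -0.83 and Hist1h2ao at -0.66 (limma adjusted p = 0.37 each), and Hist1h3b at -0.93 (0.38). Histone copies are near identical in their coding parts, so values of single members are uncertain.

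Without Arpc1bE_CdxE1_KO replicate 1 the median of the histone list was -0.34, and without replicate 2 of that group it was -0.58 and 12 members passed. Gene length moved with these values. The median log2 fold change in 5 bins of exon length with 2068 to 2074 genes each, from the shortest genes to the longest, was -0.08, -0.01, 0.03, 0.04 and 0.08, and the median exon length was 534 bases in the histone list and 4354 bases in all tested genes. With the trend over length removed, the median of the histone list was -0.31.

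The cytosolic ribosomal protein genes leaned the same way, and the size of their median rested largely on 1 library. Of 85 tested members, 55 had both CdxE2_KO libraries below both Arpc1bE_CdxE1_KO libraries and 1 above, where 18.6% and 24.8% of all tested genes did. In limma 11 had an unadjusted p under 0.05 and 0 passed at an adjusted p under 0.05. The median was -0.27, and -0.22 with the trend over gene length removed. The median level was 8.42 and 8.38 log2 units in CdxE2_KO and 8.87 and 8.44 in Arpc1bE_CdxE1_KO. By this median level, only Arpc1bE_CdxE1_KO replicate 1 stood apart. Without it the median was -0.08, and without Arpc1bE_CdxE1_KO replicate 2 it was -0.48 and 45 members passed. Rpl38 had 7.38 and 7.41 log2 units in CdxE2_KO, 7.93 and 7.62 in Arpc1bE_CdxE1_KO, and 6.99 and 6.75 in the control (log2 fold change -0.38, limma adjusted p = 0.55), and Rpl24 had a log2 fold change of -0.44 (limma adjusted p = 0.54).

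**Figure D5:**
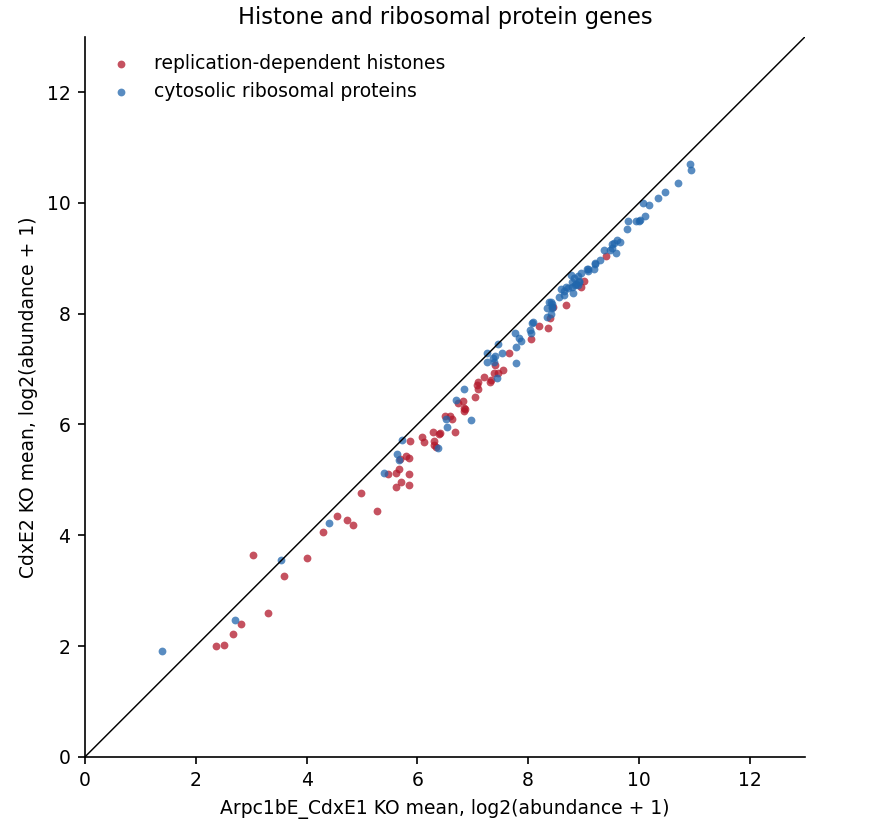
Mean level in CdxE2_KO against that in Arpc1bE_CdxE1_KO, in log2(abundance + 1), for the 63 histone and 85 cytosolic ribosomal protein genes tested; the line marks equal levels. Of the histone genes 62 lie below the line, and the median of the ribosomal protein genes is 0.27 log2 units below it.

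The oxidative phosphorylation, mitochondrial ribosomal protein and proteasome lists also had medians below 0, which came closer to 0 without that library. In the nuclear oxidative phosphorylation list, 32 of 82 tested members had lower values in both CdxE2_KO libraries and 1 higher (median -0.15), where 18.6% and 24.8% of all tested genes did, with Cox6c, a subunit of cytochrome c oxidase, at -0.58 and Uqcrb, a subunit of complex III, at -0.61. In the mitochondrial ribosomal protein list these were 25 and 2 of 77 (median -0.14), and in the proteasome list 14 and 1 of 40 (median -0.17). Without Arpc1bE_CdxE1_KO replicate 1 the medians were -0.03 for oxidative phosphorylation, -0.05 for mitochondrial ribosomal proteins and -0.06 for the proteasome. Without replicate 2 of that group they were -0.27, -0.23 and -0.26 in the same order. With the trend over gene length removed they were -0.07, -0.08 and -0.17. In these 3 lists 0 members passed at a limma adjusted p under 0.05, while 10, 6 and 5 with lower values had an unadjusted p under 0.05 and 1 in each with higher values did. Of 91 tested small nucleolar RNAs, 20 had lower values in both CdxE2_KO libraries, a share near the 18.6% of all tested genes, and 9 higher. Their median of -0.19 was -0.02 with the trend over gene length removed, -0.02 without Arpc1bE_CdxE1_KO replicate 1 and -0.39 without replicate 2.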

How the data were processed

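Total RNA libraries of 8-cell embryos were made with random primers and a stranded kit, and ribosomal cDNA was depleted after amplification, per the labels' protocols. Per the submitters' processing notes, StringTie 1.3.4, Cufflinks, HISAT2 2.1.0 and SAMtools 1.7 were used with the mm10 build. The authors deposited 1 log2 value per gene and library, and exact zeros put the added constant at 1. Depth is unknown, and an added constant of 1 understates changes of low genes. An exact 0 can be a failed estimate. Srp54c was listed at 0 in Arpc1bE_CdxE1_KO replicate 1 and at 4.07 log2 units in replicate 2. Gapdh was listed at 0.03 to 0.81 log2 units in the knockout libraries, and at 0 and 0.27 in the control.

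The 2 CdxE2_KO and 2 Arpc1bE_CdxE1_KO libraries were fitted in R 4.3.3 by limma 3.58.1 with eBayes and an intensity trend on the deposited log2 values. The 10777 genes that reached 1 linear unit in 2 or more of the 4 libraries were tested, and a Benjamini-Hochberg adjusted p under 0.05 over all of them made a call. All gene p-values are from this fit unless another setting is named, and each fold change is on the log2(value + 1) scale. The fit was tested on simulated data. Named genes are Cdx2, Arpc1b, Tfap2c and Klf5, all called genes, those with the lowest p up to 8 in each direction (higher group mean of at least 10 linear units, libraries not overlapping, no predicted, Rik or -ps symbols), called list members and the 5 genes on each side of Arpc1b and Cdx2. The comparison, its members and the 34 gene lists were chosen with earlier results of these data known. Lists are described by counts and medians, with no test. Positions and exon lengths are from GENCODE M21, where 10355 tested genes have 1 gene model, and promoters from RefSeq on GRCm38.p6. The 2 tables with the knockdown libraries were not used here.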

Additional observations from a re-analysis of the deposited data

How the results depend on the processing

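The number of genes called was 2 under median centring, rescaling to one sum without Rn45s and removal of the gene length trend, the last chosen after seeing the data. It was 5 (4 higher in CdxE2_KO, 1 lower) with the controls in the fit, 4 (2 and 2) with a filter at 5 linear units, and 0 without a filter, with an added constant of 0.1 and without an intensity trend, where 1362, 914 and 923 genes had an unadjusted p under 0.05 in limma. Genes called with at least a 2-fold change numbered 4 with the controls, 4 with the filter at 5 units, and 0 under the same last 3 settings. Leaving out 1 library gave 4 to 171 called genes, with 2 to 49 higher, 0 to 122 lower and 4 to 39 changed at least 2-fold; the lone library of a group is then taken to vary like the other group. Called list members numbered 0 in the fit as reported, 1 with the controls, 1 with the filter at 5 units, and 0 to 92 with 1 library left out.

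The labels number the libraries of both groups 1 and 2, but same-numbered libraries did not deviate together (r = -0.01 across genes). This is 1 correlation over 2 pairs of libraries, so it cannot tell whether same-numbered libraries share a pool or a batch. With the replicate block there were 5 called genes (3 higher, 2 lower; 5 at least 2-fold), 1 of them a list member, and Arpc1b, at 1.46, had an adjusted p of 0.026.

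Arpc1b kept its direction in all 13 alternatives, between 1.37 and 1.55, with adjusted p from 0.018 to 0.41. Its log2 fold change of 1.46 passed with the controls and with the filter at 5 units, and without single libraries it was 1.37 to 1.55. Lsm5 passed in 10 of 13 alternatives (1.7 to 1.91) and Lpar1 in 9 of 13 (-2.56 to -2.10). The fold changes of Tfap2c and Klf5, near 0, turned sign. With 1 library left out Tfap2c was at -0.11 to 0.048, above 0 without CdxE2_KO replicate 2 (0.033) and without Arpc1bE_CdxE1_KO replicate 2. Klf5 was at -0.10 to 0.062, above 0 without these libraries, and at 0.012 after rescaling. With 2 libraries a group and unknown depth, a gene that did not pass is not shown to be unchanged.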

Other observations

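Genes of the p53 response, which follows DNA damage and other stress, divided between the directions. Of 31 tested members, 8 had higher values in both CdxE2_KO libraries and 7 lower ones, shares near the 24.8% and 18.6% of all tested genes. In limma 1 and 5 had an unadjusted p under 0.05, where 4.83% and 3.97% of all tested genes did, and 0 passed at an adjusted p under 0.05. The members named below were chosen by their low p after the values were seen. Ccng1, a p53 target of the cyclin G family, had 3.68 and 3.73 log2 units in CdxE2_KO, 4.54 and 4.22 in Arpc1bE_CdxE1_KO, and 2.64 and 2.72 in the control, a log2 fold change of -0.67. Cdkn1a, the cell cycle inhibitor p21, had 3.94 and 4.29 log2 units in CdxE2_KO, 4.40 and 4.94 in Arpc1bE_CdxE1_KO, and 3.41 and 3.13 in the control, a log2 fold change of -0.55. In both genes all 4 knockout libraries stood above the control and the Arpc1bE_CdxE1_KO libraries were the highest. Zmat3 was at -0.44, Phlda3 at -0.50, Eda2r at -0.53 and Gadd45a at 0.62. The list of double-strand break repair genes had 11 of 32 tested members with higher values in both CdxE2_KO libraries and 0 with lower ones, where 24.8% and 18.6% of all tested genes did, with a median of 0.02, and Brca2, on chromosome 5, was at 0.45.

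In the heat shock and integrated stress response list, 5 of 23 tested members had higher values in both CdxE2_KO libraries and 5 lower ones. These shares lay near the 24.8% and 18.6% of all tested genes. An unadjusted limma p under 0.05 was seen in 4 members, all higher. Ppp1r15a, which directs dephosphorylation of eIF2 alpha, had 4.97 log2 units in each CdxE2_KO library, 4.33 and 4.50 in Arpc1bE_CdxE1_KO, and 4.05 and 3.93 in the control, a log2 fold change of 0.55 (limma adjusted p = 0.42). The other 3 were Bag3 at 0.41, Hspa5 at 0.30 and Hspa1a at 0.67. The list of FGF receptors and MAP kinase feedback had a median of 0.17, with 10 of 20 tested members higher in both CdxE2_KO libraries and 3 lower, where 24.8% and 18.6% of all tested genes were. In it Jun was at 0.61, Dusp4, a MAP kinase phosphatase, at 0.57, Fgf4 at 0.39 and Grb7, an adaptor, at -0.59. The cell cycle list had 11 of 34 higher and 2 lower, with Plk1, a mitotic kinase, at 0.40, and the DNA replication list had 6 of 42 higher and 9 lower.

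Genes listed at 0 in both CdxE2_KO libraries but at 1 linear unit or more in both Arpc1bE_CdxE1_KO libraries numbered 2, and 0 showed the reverse. Chosen after their values were seen, they are Oog1, an oocyte gene, at 2.89 and 1.68 log2 units in Arpc1bE_CdxE1_KO and 0 in both control libraries, and Mir743, at 1.37 and 1.35 in Arpc1bE_CdxE1_KO and 0.67 and 1.21 in the control. An exact 0 in these values can be a failed estimate.

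None of the members of the remaining lists passed at a limma adjusted p under 0.05. Their counts of members higher or lower in both CdxE2_KO libraries stand beside 24.8% higher and 18.6% lower among all tested genes. Glycolysis had 7 of 18 tested members with higher values in both CdxE2_KO libraries and 1 lower (median 0.10), with the glucose transporter Slc2a3 at 0.43. Of 12 tested genes that move ions and water, 7 were higher and 1 lower (median 0.15), and the wider solute carrier family 41 of 153 higher and 20 lower (median 0.05), with the glycine transporter Slc6a9 at 0.56. Sterol biosynthesis had 4 of 22 higher and 5 lower, the lysosome 5 of 30 higher and 8 lower, and the Klf and Sp family 3 of 16 higher and 1 lower. The AP-2 family and its coregulators had 3 of 8 higher and 3 lower, with Kctd15, a repressor of AP-2 activity, at 0.50. Transcripts of the 2-cell stage had 1 of 9 higher and 4 lower, oocyte-inherited transcripts 3 of 22 each way, and the interferon response 1 of 7 higher and 2 lower.

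Among RNAs outside the protein-coding lists, 3 of 7 spliceosomal, vault and polymerase III RNAs had lower values in both CdxE2_KO libraries and 0 higher (median -0.32). Only 5 of the 7 have a known length, and with the trend over gene length removed their median was -0.17. These medians cover different members and cannot be compared directly. Small nucleolar RNA host genes had 4 of 18 higher and 9 lower, and microRNA genes 26 of 195 higher and 27 lower. Numbered zinc finger genes had 56 of 246 higher and 41 lower. The longer cumulus and granulosa list had 3 tested members with a median of 0.06, and the spermatid list had 1, Odf2, at 0.28.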
